A study of Mus musculus with 12 samples.

Results

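The 10 genes described here encode the transcription factors that drive the formation of fat cells: the nuclear receptor Pparg with its dimer partners Rxra and Rxrg, the CCAAT/enhancer-binding proteins Cebpa, Cebpb and Cebpd, the Krüppel-like factor Klf15, the early B cell factors Ebf1 and Ebf2, and the zinc-finger protein Zfp423. They were chosen by name as textbook regulators of adipogenesis, and all 10 were present among the 16411 genes of the table and passed the filter on low counts. RNA was measured in 6 mammary tumors and 6 pieces of benign mammary tissue from female MMTV-Neu-NDL-YD5 mice, kept on an FVB background and heterozygous for the transgene. The MMTV promoter drives an activated rat form of HER2 (Neu) in mammary epithelium, and the benign tissue carried the same transgene. Per the study's methods, the benign pieces showed no visible tumor and were taken far from the tumor site, the tumors and benign samples came from different mice. The series description states that there was no treatment. The ages at collection were not given per sample, and a benign piece is therefore tissue of a transgenic, tumor-prone strain and not of a wild-type mouse.

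Adipogenesis runs as a relay. Cebpb and Cebpd are induced early when a fibroblast-like precursor is stimulated, and they switch on Pparg and Cebpa, which then maintain each other and the lipid-handling genes of the mature cell. PPARG binds DNA as a dimer with a retinoid X receptor. EBF factors and ZFP423 act in the precursor, where they commit cells to the fat lineage, and KLF15 is a later regulator of metabolism in fat, muscle and liver. The mammary gland lies within a fat pad, so whole benign mammary tissue holds adipocytes and their precursors beside epithelium.

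The libraries differed in the tissues they held. Total counts lay between 5240853 and 8588567 per sample, and Erbb2, the gene of the transgene's product, was at 44.8 to 73.7 CPM (counts scaled to library size, with the TMM method of edgeR) in the benign group and at 1989 to 16634 CPM in tumors. Skeletal muscle markers summed to 53530, 35691 and 91164 CPM in benign 3, 4 and 6 and to 32.4, 42.5 and 387 CPM in benign 1, 2 and 5. Among tumors the same 10 markers summed to 153 CPM in tumor 5 and to between 0.843 and 9.58 CPM in the others, and none was at 0 in a whole group. Brown fat markers were highest in benign 4 and 6, at 3440 and 1118 CPM, and B cell markers were at 724 CPM in benign 1 and at most 8.62 CPM elsewhere. Results that rest on benign 3, 4 and 6 or on tumor 5 are given below with and without them.

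Of the 10 factors, 8 were lower in tumors, 1 (Cebpb) was higher and 1 (Cebpd) passed no test, by edgeR's quasi-likelihood test at an adjusted p of 0.1 over 13191 genes. Over all genes tested, 34.8% were called lower and 28.2% higher, 63.0% in all. The median log2 fold change of the 10 factors was -3.30, against -0.06 over all genes. In 6 of the 10, every tumor lay below every benign sample, a pattern seen in 21.2% of all genes. In Cebpb every tumor lay above every benign sample, which held for 14.7% of all genes, and together 35.9% of all genes had groups that did not overlap. DESeq2 made the same calls for the 10 factors, with 59.9% of 16034 genes called, 33.3% lower and 26.6% higher. Without benign 3, 4 and 6, edgeR called 6 of the factors lower and 1 higher, with 28.7% of 13604 genes lower and 26.7% higher, 55.4% in all, and Rxrg and Zfp423 lost their calls. In these whole tissues, fewer cells that express a factor and less of its RNA per cell cannot be told apart.

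**Figure D1:**
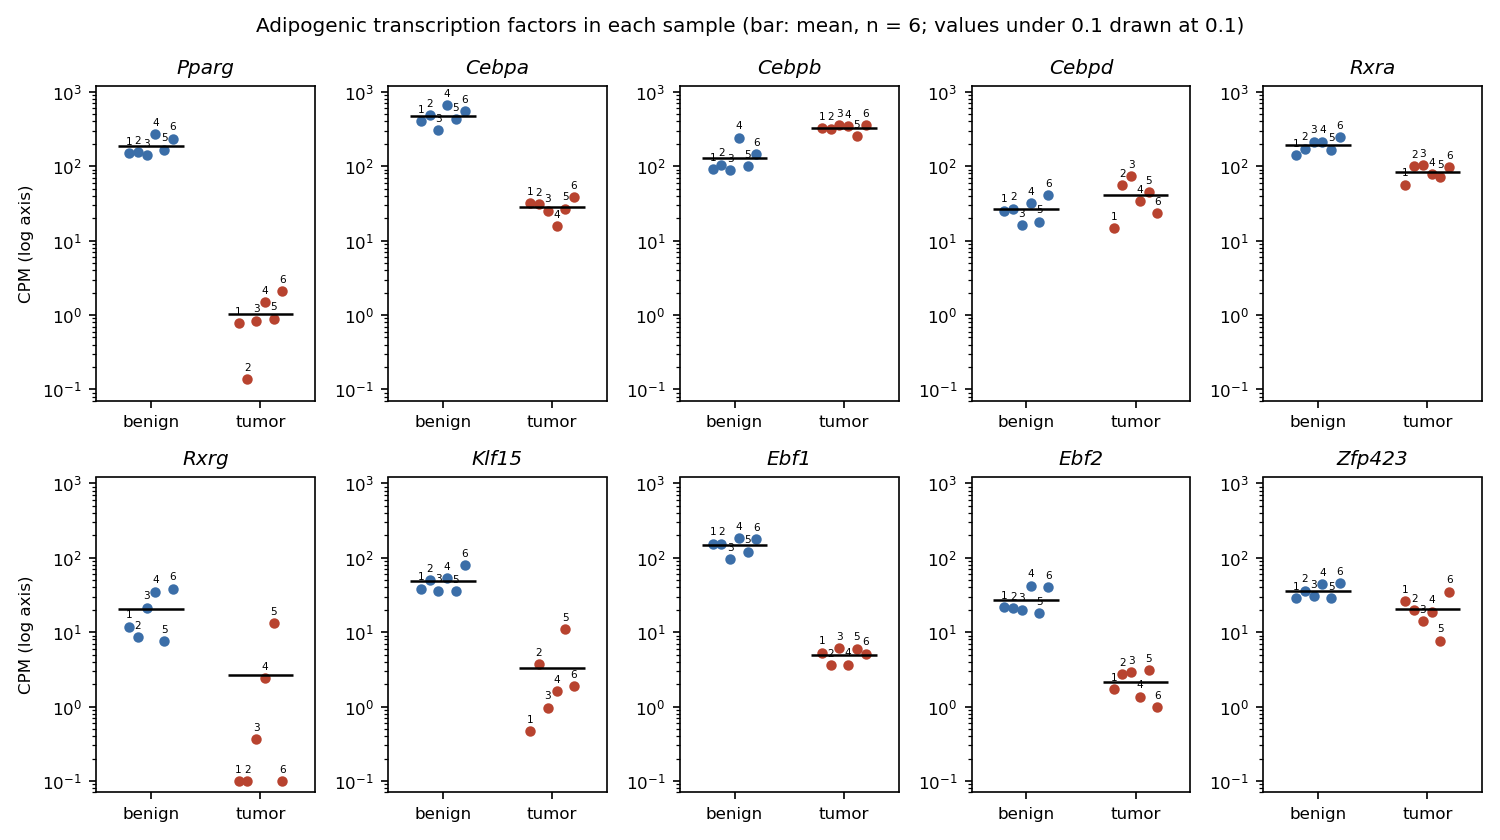
CPM (log axis) of the 10 factors in each of the 6 benign samples and 6 tumors, with sample numbers beside the points and a bar at the group mean. Pparg, Cebpa, Rxra, Klf15, Ebf1 and Ebf2 are separated with tumors below, Cebpb is separated with tumors above, and in Rxrg and Klf15 tumor 5 is the highest tumor.

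**Figure D2:**
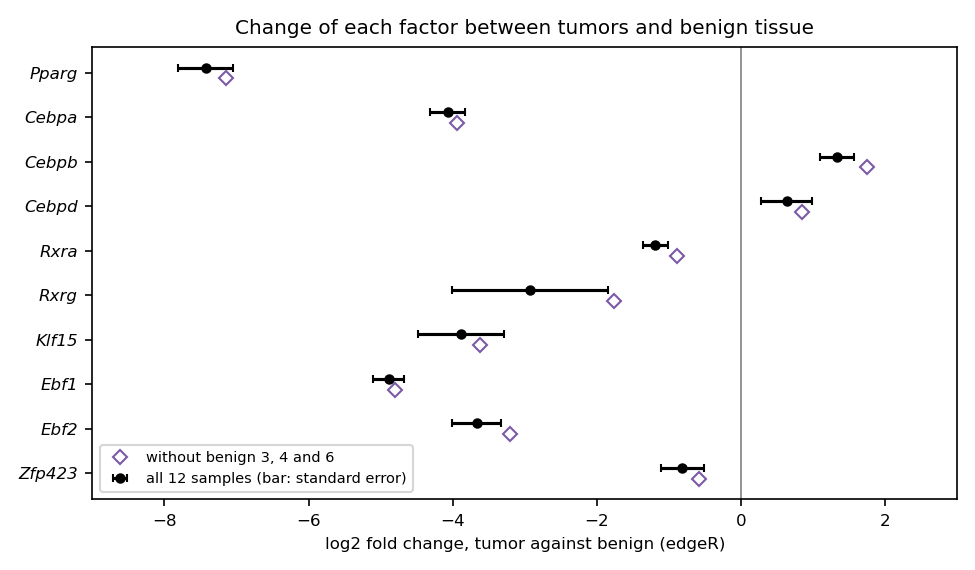
Log2 fold change of each factor, tumor against benign, with its standard error in all 12 samples (filled circles) and without benign 3, 4 and 6 (open diamonds). Pparg lies furthest to the left at -7.43, Cebpb at 1.33 and Cebpd at 0.64 lie to the right of 0, and Rxrg has the widest error at 1.09.

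Pparg, the nuclear receptor without which fat cells do not form (chr6:115360879-115490404, GRCm38), fell furthest. In the benign samples it had a lowest value of 141 CPM, a median of 161 CPM and a highest value of 268 CPM. In tumors the lowest value was 0.138 CPM, the median 0.869 CPM and the highest 2.09 CPM, which corresponds to between 1 and 19 counts per library. The groups were far apart, with benign 4 and 6 the highest of the benign samples and tumor 6 the highest tumor. The group means were 186 ± 52.7 and 1.04 ± 0.668 CPM (SD, n = 6 each), a 179-fold difference. This gave a log2 fold change of -7.43 with a standard error of 0.39 (edgeR adjusted p = 1.03e-08). Tumor 6 also had the highest sum of adipocyte markers among tumors, at 76.1 CPM against 24.2 to 46.7 CPM in the others, and the part of these markers in the Pparg values was not tested.

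The Pparg counts are per gene and do not separate its transcripts. In the GENCODE M21 annotation, transcript Pparg-201 starts at position 115422066 of chromosome 6 and its coding sequence begins in that exon, which is the form that encodes PPARG2, the isoform of fat cells; the transcripts Pparg-202 and Pparg-204 start further upstream and share a later start codon. The 250 bases upstream of 3 starts are shown, from RefSeq on GRCm38.p6 and 5′ to 3′, as follows: Pparg-201 because C/EBP proteins are known to act on it, and Cebpa and Cebpb because these family members moved in opposite directions. Capitals mark the C/EBP motif TTGCNNAA, the TATA motif TATAAA and the GC box GGGCGG on either strand.
Pparg-201 (chr6:115421816-115422065, plus strand): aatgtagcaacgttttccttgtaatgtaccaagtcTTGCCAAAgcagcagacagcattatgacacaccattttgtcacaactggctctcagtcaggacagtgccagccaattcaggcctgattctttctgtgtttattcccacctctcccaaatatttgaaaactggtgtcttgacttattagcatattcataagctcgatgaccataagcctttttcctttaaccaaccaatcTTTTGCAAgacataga
Cebpa (chr7:35119043-35119292, plus strand): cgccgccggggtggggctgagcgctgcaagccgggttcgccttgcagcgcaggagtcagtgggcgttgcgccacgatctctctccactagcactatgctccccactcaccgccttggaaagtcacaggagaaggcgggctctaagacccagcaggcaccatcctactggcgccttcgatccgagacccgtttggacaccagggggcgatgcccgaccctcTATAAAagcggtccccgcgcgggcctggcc
Cebpb (chr2:167688665-167688914, plus strand): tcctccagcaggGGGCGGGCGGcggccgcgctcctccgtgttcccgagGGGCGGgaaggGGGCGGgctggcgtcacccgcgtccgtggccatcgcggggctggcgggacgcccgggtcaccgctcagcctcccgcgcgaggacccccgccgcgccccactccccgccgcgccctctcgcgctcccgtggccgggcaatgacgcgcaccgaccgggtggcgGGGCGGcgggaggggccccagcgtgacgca

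The Pparg-201 stretch held 2 matches to the C/EBP motif, with first bases at -215 and -16 from the start, and neither overlapped another motif searched. The Cebpa stretch held TATAAA at -30 and no C/EBP match. The Cebpb stretch held 5 GC boxes, its first pair at -238 and -234 overlapping each other, and was 81.6% G and C against 40.8% in Pparg-201. Among the 32851 stretches of 250 bases in the table, 9.56% held TTGCNNAA, 12.4% TATAAA and 32.7% GGGCGG. The other motifs searched on both strands were the nuclear receptor half-site AGGTCA (14.0% of stretches), CCAAT (33.8%) and the E-box CACGTG (6.02%). Of the 10 factors, 8 matched the table with 14 start sites. Besides Pparg-201, 1 Rxrg and 1 Zfp423 stretch held a C/EBP match. These matches describe letters and not binding. Only exact matches to a pattern were counted, so a stretch without a match can still hold a variant of it.

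Cebpa, the C/EBP protein of the mature adipocyte and PPARG's partner in maintaining it (chr7:35119293-35121928), also fell in every tumor. Benign samples ran from 309 CPM through a median of 462 CPM to 656 CPM. Tumors ran from 15.7 CPM through a median of 28.8 CPM to 38.4 CPM. The groups did not overlap, and the means of 473 ± 120 and 28.2 ± 7.64 CPM (SD, n = 6 each) differed 16.8-fold. On the log2 scale the change was -4.07 (SE 0.24, edgeR adjusted p = 3.03e-08). Cebpa therefore retained more of its level than Pparg: tumors had 5.96% of the benign mean for Cebpa and 0.558% for Pparg. The log2 ratio of Pparg to Cebpa CPM within a library averaged -1.35 ± 0.19 in benign tissue and -4.57 ± 1.01 in tumors, a difference of -3.22 (exact two-sided permutation test, p = 0.00216, adjusted over 5 ratios 0.00271). This p is the smallest the design can give. It was fixed by the ranges of Pparg and Cebpa given above, and so adds no separate evidence for the ratio.

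Cebpb, the early C/EBP factor that also acts in mammary epithelium and in inflammatory responses (chr2:167688915-167690432), moved the other way. Benign samples had a lowest value of 88.0 CPM, a median of 102 CPM and a highest value of 243 CPM in benign 4. Tumors had a lowest value of 251 CPM in tumor 5, a median of 334 CPM and a highest value of 356 CPM. Every tumor was above every benign sample, but benign 4 and tumor 5 lay close together. The means were 129 ± 59.5 and 325 ± 39.1 CPM (SD, n = 6 each), 2.52 times higher in tumors, with a log2 fold change of 1.33 (SE 0.24, edgeR adjusted p = 0.000401). Without benign 3, 4 and 6 the log2 fold change was 1.76 (edgeR adjusted p = 1.04e-05). Macrophage markers, cells in which Cebpb is also expressed, summed to 330 to 460 CPM in benign tissue and 178 to 328 CPM in tumors, with 5 of 6 markers lower in tumors and none at 0 in a group. Epithelial markers summed to 964 to 2536 CPM in benign tissue and 2546 to 4255 CPM in tumors, with 5 of 8 higher and 3 lower, and their part in the Cebpb values was not tested.

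Cebpd, the other early factor (chr16:15887286-15889545), did not pass the test. Benign samples ran from 16.2 CPM through a median of 26.2 CPM to 40.5 CPM. Tumors ran from 14.6 CPM in tumor 1 through a median of 39.2 CPM to 74.1 CPM in tumor 3. Of the 6 tumors, 3 were above the highest benign sample and 1 was below the lowest. Its log2 fold change was 0.64 (SE 0.35, edgeR adjusted p = 0.142). The call depended on the libraries and the scaling: without tumor 1 the log2 fold change was 0.87 (edgeR adjusted p = 0.0308), without tumor 6 it was 0.82 (edgeR adjusted p = 0.0686), without benign 6 it was 0.80 (edgeR adjusted p = 0.0845), and with total counts in place of TMM it was 0.74 (edgeR adjusted p = 0.0729).

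Cebpa and Cebpb therefore changed places between benign tissue and tumors. The log2 ratio of Cebpb to Cebpa CPM lay between -2.23 and -1.43 in the 6 benign samples and between 3.20 and 4.43 in the 6 tumors, a difference of means of 5.49. The log2 ratio of Cebpd to Cebpa lay between -4.56 and -3.74 in benign tissue and between -1.12 and 1.54 in tumors, a difference of 4.57, and was below 0 in tumors 1 and 6 as in every benign sample. Both differences had an exact two-sided permutation p of 0.00216 (adjusted 0.00271). For both ratios this p was fixed by the ranges of the single genes given above. Cebpb and Cebpa each separated the groups and moved in opposite directions. For Cebpd to Cebpa, the fall of Cebpa was larger than the spread of Cebpd. The p therefore adds no separate evidence for either ratio. Per kilobase of annotated exon, which allows genes to be compared with each other, Cebpa was at 180 ± 45.6 and Cebpb at 85.8 ± 39.5 CPM per kb in benign tissue, and at 10.7 ± 2.90 and 216 ± 26.0 CPM per kb in tumors (SD, n = 6 each). Cebpa made up 61.7% ± 3.65 of the summed level of Cebpa, Cebpb, Cebpd, Cebpg and Cebpe in benign tissue and 4.30% ± 1.16 in tumors, while Cebpb went from 28.5% ± 4.33 to 86.2% ± 3.20. The sum itself was 294 ± 87.1 CPM per kb in benign tissue, with a range of 198 to 444, and 251 ± 25.7 CPM per kb in tumors, with a range of 205 to 278. The ranges of the sum overlapped, whereas the ranges of the Cebpa and Cebpb shares did not. Exon length was the union of all annotated exons, which can exceed that of the transcript in use.

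The PPAR family was rearranged too. Pparg made up 77.9% ± 4.52 of the summed level per kb of Ppara, Ppard and Pparg in benign tissue, with a range of 71.4% to 83.9%, and 2.71% ± 1.94 in tumors, with a range of 0.357% to 6.18%. Ppard, the widely expressed family member, had 21.0% ± 5.09 of the sum in benign tissue and 93.2% ± 2.46 in tumors. The Ppard level itself was 20.1 ± 2.27 CPM per kb in benign tissue and 15.6 ± 3.22 CPM per kb in tumors, with a log2 fold change of -0.37 (edgeR adjusted p = 0.0393) that lost its call without benign 3, 4 and 6 (-0.29, edgeR adjusted p = 0.201). Ppara, the receptor of fatty acid oxidation, was at 4.11 ± 3.97 and 2.36 ± 1.25 CPM and passed no test (log2 fold change -0.79, edgeR adjusted p = 0.28), and its sign turned without benign 3, 4 and 6 (0.49, edgeR adjusted p = 0.505). The family sum was 99.5 ± 23.0 CPM per kb in benign tissue and 16.7 ± 3.30 CPM per kb in tumors.

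**Figure D3:**
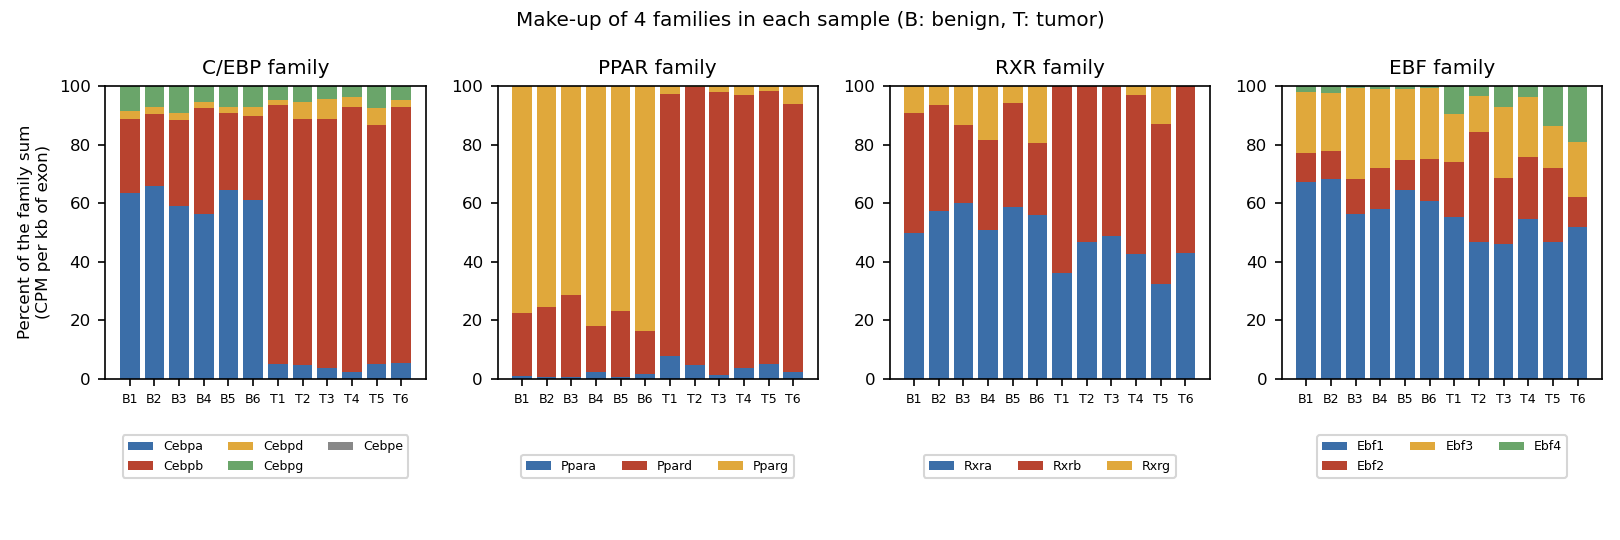
Share of each gene in the summed level (CPM per kb of exon, percent) of its family, for the C/EBP, PPAR, RXR and EBF families, with a stacked bar for each benign sample (B1 to B6) and tumor (T1 to T6). Cebpa falls from 61.7% to 4.30% and Pparg from 77.9% to 2.71% of their families, while no EBF gene takes over in tumors in this way and Ebf1 stays the highest with 62.4% and 50.1%.

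Rxra, the main dimer partner of PPARG (chr2:27676445-27763319), fell by less than Pparg. Benign samples ran from 142 CPM through a median of 194 CPM to 247 CPM, and tumors from 56.4 CPM through a median of 87.7 CPM to 104 CPM. The groups did not overlap, and tumors had 43.9% of the benign mean. The log2 fold change was -1.19 (SE 0.18, edgeR adjusted p = 8.52e-05) and -0.88 without benign 3, 4 and 6 (edgeR adjusted p = 0.00346). Rxrb, the family member outside the 10 factors, had means of 62.5 ± 6.97 and 63.6 ± 6.51 CPM in benign samples and tumors (log2 fold change 0.03, SE 0.10, edgeR adjusted p = 0.844). Rxra had 55.5% ± 4.18 of the summed RXR level per kb in benign tissue and 41.6% ± 6.30 in tumors, and Rxrb had 32.5% ± 6.15 and 55.7% ± 4.53. In each of the 6 tumors Rxrb had the larger share, at 50.7% to 63.9%, and in each of the 6 benign samples Rxra did, at 49.9% to 60.0%.

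Rxrg, the RXR gene of skeletal muscle and of few other tissues (chr1:167598362-167639623), varied most. In benign tissue it was at 11.9, 8.60, 21.2, 34.9, 7.49 and 38.3 CPM in samples 1 to 6. In tumors it had 0 counts in samples 1, 2 and 6 and was at 0.361, 2.43 and 13.2 CPM in samples 3, 4 and 5. The highest benign values, in samples 3, 4 and 6, and the highest tumor value, in sample 5, were in the libraries with the highest skeletal muscle markers of each group. Their part in the Rxrg values was not tested. A count of 0 allows up to 3 counts, which is 0.411 CPM at the mean library size and covers counting error only. The log2 fold change was -2.92 (SE 1.09, edgeR adjusted p = 0.0349), and 5 of 6 tumors were below the lowest benign sample. Without benign 3, 4 and 6 it was -1.76 and lost its call (edgeR adjusted p = 0.31), without tumor 5 it was -5.09, and without all 4 libraries, an alternative chosen after the data were seen, it was -3.99 (edgeR adjusted p = 0.0103).

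The log2 ratio of Rxra to Rxrg averaged 3.48 ± 0.77 in benign tissue and 6.55 ± 2.41 in tumors (exact two-sided permutation p = 0.026, adjusted 0.026), with tumor 5 at 2.43, below every benign sample. The difference of 3.07 became 2.46 without benign 3, 4 and 6, and the adjusted permutation p became 0.167. Leaving out tumor 1, 2, 3 or 6 in turn gave an adjusted permutation p of 0.0519 each time, and leaving out tumor 5 gave a difference of 3.89 with an adjusted permutation p of 0.00433. Because 3 tumors had 0 counts of Rxrg, the tumor ratio depends on the added count: with 0.5 in place of 2 added counts the difference was 4.16 (adjusted permutation p = 0.026).

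Klf15, a glucocorticoid-responsive regulator of lipid and amino acid metabolism (chr6:90461043-90491803), was lower in every tumor. Benign samples ran from 35.8 CPM through a median of 44.2 CPM to 79.2 CPM in benign 6. Tumors ran from 0.467 CPM through a median of 1.74 CPM to 11.0 CPM in tumor 5. The groups did not overlap, but the tumors spread widely, with a coefficient of variation of 121% against 34.1% in benign tissue. The log2 fold change was -3.89 (SE 0.60, edgeR adjusted p = 0.000112). It was -4.74 without tumor 5, which had the highest skeletal muscle and brown fat markers of the tumors (153 and 29.4 CPM), and -3.62 without benign 3, 4 and 6 (edgeR adjusted p = 0.00208).

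Ebf1 (chr11:44618100-45008096), which acts in adipocyte precursors and adipocytes and, in another lineage, specifies B cells, fell with little spread. Benign samples ran from 96.4 CPM through a median of 154 CPM to 185 CPM. Tumors ran from 3.58 CPM through a median of 5.23 CPM to 6.14 CPM. The groups did not overlap, and the means of 148 ± 33.6 and 4.97 ± 1.12 CPM (SD, n = 6 each) differed 29.7-fold. With edgeR the log2 fold change was -4.89 (SE 0.21, edgeR adjusted p = 3.82e-09). Benign 1, with 724 CPM of B cell markers, had 154 CPM of Ebf1. Benign 2 to 6, with at most 8.62 CPM of those markers, had 154, 96.4, 185, 121 and 176 CPM of Ebf1. The part of B cells in the Ebf1 values was not tested. Over the 12 fits that left out 1 library, the log2 fold change stayed between -4.99 and -4.74.

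Ebf2 (chr14:67233292-67430952), a factor of precursors and of brown and beige fat, was at 18.1 CPM at its lowest in benign tissue, at a median of 21.4 CPM and at 42.0 CPM at its highest. In tumors it was between 0.988 and 3.07 CPM with a median of 2.23 CPM. The benign samples fell into 18.1 to 21.9 CPM in samples 1, 2, 3 and 5 and 42.0 and 40.5 CPM in samples 4 and 6, which also had the highest brown fat markers. The part of brown fat in those values was not tested. Ebf2 had a log2 fold change of -3.67 (SE 0.35, edgeR adjusted p = 1.6e-06), and -3.21 without benign 3, 4 and 6 (edgeR adjusted p = 3.58e-05). Ebf3, the related gene outside the 10 factors, fell as well, with a log2 fold change of -4.97 (SE 0.29, edgeR adjusted p = 2.68e-08). The summed EBF level was 39.7 ± 9.59 CPM per kb in benign tissue and 1.68 ± 0.449 CPM per kb in tumors. The log2 ratio of Ebf1 to Ebf2 went from 2.48 ± 0.35 to 1.19 ± 0.59 (difference -1.29, exact two-sided permutation p = 0.00216, adjusted 0.00271), with the highest tumor at 2.10 and the lowest benign sample at 2.12.

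Zfp423, which marks committed precursors and restrains the brown fat program (chr8:87661810-87962053), changed least among the factors called lower. Benign samples ran from 28.6 CPM through a median of 33.3 CPM to 45.4 CPM. Tumors ran from 7.67 CPM in tumor 5 through a median of 19.4 CPM to 35.0 CPM in tumor 6. The groups overlapped, with 5 of 6 tumors below the lowest benign sample. Its log2 fold change was -0.81 (SE 0.29, edgeR adjusted p = 0.0314). Without benign 3, 4 and 6 it was -0.58 and lost its call (edgeR adjusted p = 0.239), and it also did without these libraries and tumor 5 (-0.42, edgeR adjusted p = 0.24).

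The order of the levels per kb of exon shows how the set was rearranged. In benign tissue Cebpa was highest at 180 CPM per kb, followed by Cebpb at 85.8, Pparg at 78.2, Rxra at 37.8, Ebf1 at 24.7, Klf15 at 17.7, Rxrg at 8.88, Cebpd at 7.06, Zfp423 at 7.04 and Ebf2 at 4.80 CPM per kb. In tumors Cebpb led at 216 CPM per kb, followed by Rxra at 16.6, Cebpd at 11.0, Cebpa at 10.7, Zfp423 at 4.01, Klf15 at 1.19, Rxrg at 1.16, Ebf1 at 0.831, Pparg at 0.436 and Ebf2 at 0.374 CPM per kb. In benign tissue the ranges of Cebpb (58.5 to 161) and Pparg (59.3 to 113 CPM per kb) overlapped, as did those of Rxrg, Cebpd, Zfp423 and Ebf2 with their neighbours. In tumors Cebpb stood clear of every other factor. Its lowest value was 167 CPM per kb, and the highest of Rxra was 20.3 CPM per kb. The ranges of Rxra (11.0 to 20.3), Cebpd (3.91 to 19.8) and Cebpa (5.94 to 14.6 CPM per kb) overlapped. The place of Cebpd in both groups depends on the annotation. Its 3746 exon bases run to position 15891031 in GENCODE, past its RefSeq end at 15889545. The ranges of Klf15 (0.170 to 3.99), Rxrg (0 to 5.73), Ebf1 (0.598 to 1.03) and Pparg (0.0578 to 0.877 CPM per kb) overlapped too, and tumor 5 set the places of Rxrg and Klf15. Without tumor 5 the tumor mean of Rxrg was 0.243 CPM per kb, the lowest of the 10 factors, and that of Klf15 was 0.627 CPM per kb, below Ebf1 at 0.796 CPM per kb.

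Next, each factor was set against markers of adipocytes and of adipose stromal progenitors. Some factors also act in other cells, such as Cebpb in epithelium and macrophages and Rxrg in muscle. Markers of those cells were not used here, so the values are not levels per expressing cell. The mean log2 CPM of 7 adipocyte markers fell by 8.10 between benign tissue and tumors, and that of 9 adipose stromal progenitor markers fell by 2.70. Relative to the adipocyte markers, every factor was higher in all tumors than in all benign samples. The difference on the log2 scale ran from 0.81 for Pparg to 9.52 for Cebpb. For Rxrg this separation rests on the added counts, since tumors 1, 2 and 6 had 0 counts. For Pparg it may depend on them as well, since tumor 2 had 1 count. No other added count was tried on this scale. Pparg was thus the factor closest to the adipocyte markers, and the next was Ebf1 at 3.29. Of the 7 adipocyte markers, 5 (Adipoq, Plin1, Cidec, Retn and Lipe) are also among the 20 PPARG target genes described further on. Relative to the stromal progenitor markers, Pparg (-4.59), Ebf1 (-2.11) and Cebpa (-1.36) were lower in all tumors, while Cebpb (4.13), Cebpd (3.21), Zfp423 (1.78) and Rxra (1.51) were higher in all tumors. Rxrg, Klf15 and Ebf2 overlapped between groups on this scale. These values are a description without a test. Log2 CPM used 2 added counts, which understates the falls of genes with few counts in tumors, such as Pparg and Rxrg.

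**Figure D4:**
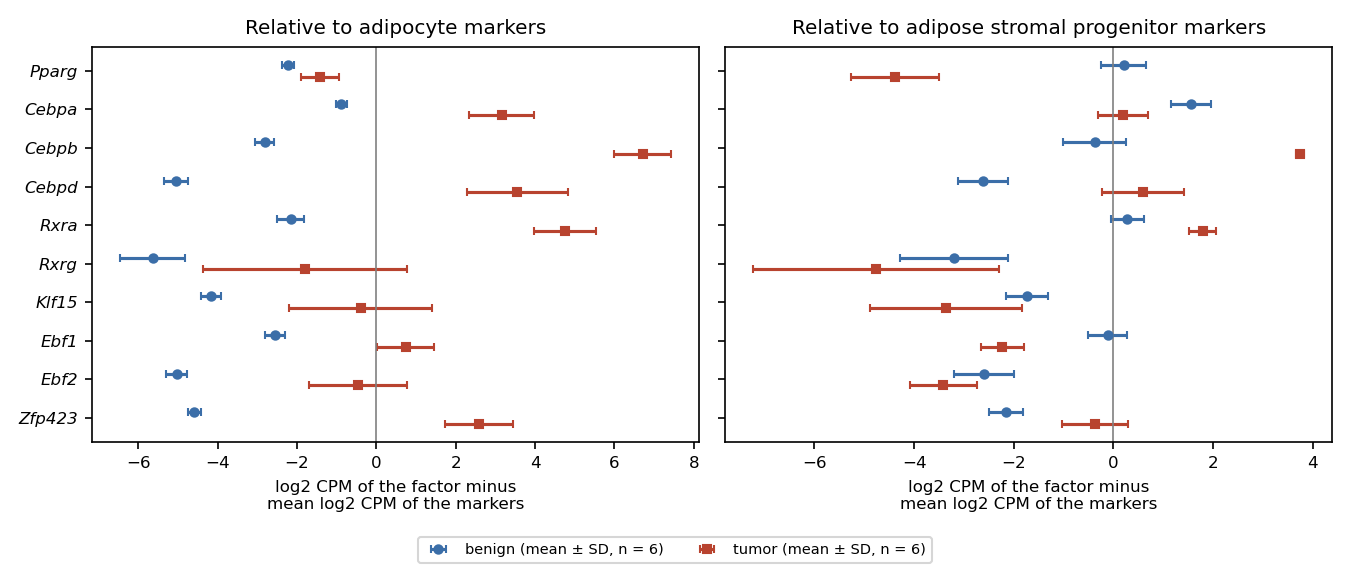
Log2 CPM of each factor minus the mean log2 CPM of 7 adipocyte markers (left) or 9 adipose stromal progenitor markers (right), as mean ± SD of 6 benign samples (circles) and 6 tumors (squares). On the left all factors shift to the right in tumors, least for Pparg (0.81), and on the right Pparg, Cebpa and Ebf1 shift left while Cebpb, Cebpd, Rxra and Zfp423 shift right.

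Both marker lists moved with the group. Adipocyte markers summed to 4907 to 10021 CPM in benign tissue and 24.2 to 76.1 CPM in tumors, with 7 of 7 markers lower and none at 0 in a group. Stromal progenitor markers summed to 1860 to 2605 CPM and 213 to 299 CPM, with 8 of 9 lower. Endothelial markers were lower too, 6 of 6, at 585 to 1031 CPM and 90.4 to 111 CPM. Pericyte and mural cell markers were lower in 5 of 6 and higher in 1 (Notch3, whose call was lost without benign 3, 4 and 6, edgeR adjusted p = 0.129). The 4 brown fat markers and 5 skeletal muscle markers that passed the filter were all lower; without benign 3, 4 and 6, 3 of the 4 and 1 of the 5 were called lower. Neutrophil markers were at 8.15 CPM or less in every sample, with 1 of 5 listed in the table tested and not called, and no B cell marker passed the filter.

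PPARG target genes of adipocytes, which act in the uptake, storage and release of lipid, all fell. Of 20 genes listed, 19 were in the table, and 19 of 19 were lower in tumors with no overlap between groups and a median log2 fold change of -6.93. Over all genes tested, 34.8% were called lower and 21.2% had every tumor below every benign sample. The largest falls were in Retn, the hormone resistin (288 ± 96.4 to 0.486 ± 0.376 CPM, log2 fold change -9.09, SE 0.43, edgeR adjusted p = 4.91e-09), and Adipoq, the hormone adiponectin (1106 ± 246 to 2.82 ± 2.22 CPM, -8.59, SE 0.52, edgeR adjusted p = 3.24e-08). Pparg itself, at -7.43, lay close to the median of these targets, whereas Cebpa at -4.07 and Rxra at -1.19 lay above it.

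Among 14 coactivators and corepressors that PPARG recruits, 9 were higher in tumors, 3 lower and 2 not called, with a median log2 fold change of 0.43. Over all genes, 28.2% were called higher and 34.8% lower. Ppargc1a, the coactivator that drives mitochondrial biogenesis, rose most, from 13.9 ± 10.7 to 38.1 ± 15.5 CPM (log2 fold change 1.46, SE 0.48, edgeR adjusted p = 0.019), with overlap between groups. Its log2 fold change was 2.84 without benign 3, 4 and 6 (edgeR adjusted p = 0.000271). Its relative Ppargc1b fell from 11.0 ± 8.27 to 1.32 ± 0.390 CPM (-3.05, SE 0.45, edgeR adjusted p = 8.33e-05). Prdm16, the cofactor of brown and beige fat, fell by 2.22 on the log2 scale (SE 0.81, edgeR adjusted p = 0.0314) and lost its call without benign 3, 4 and 6 (edgeR adjusted p = 0.15).

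**Figure D5:**
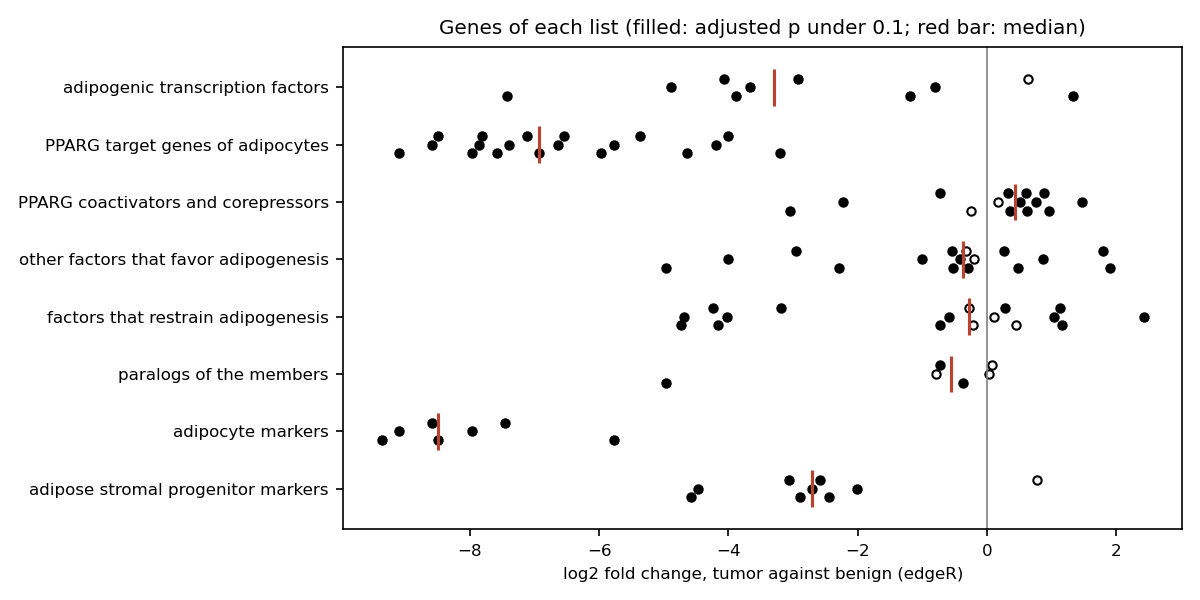
Log2 fold change, tumor against benign, of the genes of 8 lists, with filled points for an adjusted p under 0.1 and a red bar at the list median. The 19 PPARG targets lie to the left with a median of -6.93, the 14 coactivators and corepressors lie around a median of 0.43, and the lists of factors that favor or restrain adipogenesis hold genes on both sides of 0.

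Other factors that favor adipogenesis were found in both directions, with 9 of 16 lower, 5 higher and 2 not called (median log2 fold change -0.37), beside 34.8% lower and 28.2% higher over all genes. Without benign 3, 4 and 6 there were 6 lower and 5 higher, beside 28.7% and 26.7%. Mlxipl, which encodes the glucose-responsive factor ChREBP, fell from 264 ± 162 to 8.38 ± 1.98 CPM (-4.97, SE 0.40, edgeR adjusted p = 3.76e-07). Nr1h3, the oxysterol receptor LXRα, fell from 70.4 ± 17.6 to 4.35 ± 0.889 CPM (-4.01, SE 0.20, edgeR adjusted p = 8.1e-09). Srebf1, the master factor of fatty acid synthesis, rose from 589 ± 98.1 to 2206 ± 791 CPM (1.91, SE 0.23, edgeR adjusted p = 1.5e-05), with every tumor above every benign sample. Klf5 (1.79), Nfib (0.87), Creb1 (0.47) and Stat5b (0.26) were the other 4 called higher.

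Of 17 factors tested that restrain adipogenesis, 8 were lower, 5 higher and 4 not called, with a median log2 fold change of -0.29, beside 34.8% lower and 28.2% higher over all genes. Irf4 fell from 14.8 ± 10.4 to 0.529 ± 0.289 CPM (-4.74, SE 0.61, edgeR adjusted p = 2.64e-05), and Twist1, a mesenchymal factor, from 34.9 ± 9.11 to 1.33 ± 0.768 CPM (-4.69, SE 0.33, edgeR adjusted p = 1.12e-07). Id2, an inhibitor of helix-loop-helix factors, rose most, from 89.8 ± 45.4 to 483 ± 210 CPM (2.43, SE 0.40, edgeR adjusted p = 0.000196), with every tumor above every benign sample. Gata3 (1.16), Hes1 (1.13), Sox9 (1.04) and Klf3 (0.28) were the other 4 called higher, and Klf3 lost its call without benign 3, 4 and 6 (edgeR adjusted p = 0.305). Gata3 and Sox9 are also factors of mammary epithelium, whose markers were higher in tumors in 5 of 8 cases and lower in 3. The part of epithelium in the Gata3 and Sox9 values was not tested.

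Among the related genes not named so far, Cebpg, a widely expressed C/EBP dimer partner, fell from 105 ± 14.0 to 63.3 ± 10.5 CPM (log2 fold change -0.73, SE 0.13, edgeR adjusted p = 0.000371) with no overlap. Cebpz, a nucleolar protein that shares the name, was at 66.5 ± 5.29 and 70.3 ± 10.3 CPM (0.08, edgeR adjusted p = 0.561). Cebpe and Ebf4 were too low to be tested, at 0.120 and 1.58 CPM on average in benign tissue. Of the 6 related genes tested, 3 were lower (Ppard, Cebpg and Ebf3) and 3 were not called, beside 34.8% lower over all genes. Without benign 3, 4 and 6, 2 were called lower, beside 28.7% over all genes.

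Finally, the genes whose levels followed a factor from sample to sample within the groups were listed as a description, for genes with a mean of at least 10 CPM in both groups. After the group means were removed, log2 CPM of Pparg correlated best over the 12 samples with Hypk (r = 0.92), Fabp4 (r = 0.91), the adipocyte fatty acid-binding protein, and Car3 (r = 0.90), a carbonic anhydrase abundant in fat and muscle, among 9396 genes. Cebpb correlated best with Tbc1d20 (r = 0.98), Pex16 (r = 0.96) and Miga2 (r = 0.95) among 9395 genes, and Ebf1 with Ctsf (r = 0.93), Zbtb7a (r = 0.91) and Pcdhgc4 (r = 0.90). The 12 points share library depth and tissue make-up within each sample, and the genes were picked as the highest of all those compared. Pparg and Ebf1 themselves averaged 1.04 and 4.97 CPM in tumors, so their deviations there hold counting error. Adipocyte markers under the limit of 10 CPM in tumors, such as Adipoq at 2.82 CPM, were not compared.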

How the data were processed

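RNA from 6 benign samples and 6 tumors was enriched for poly A transcripts, made into directional libraries and sequenced. Per the labels, reads were processed with Trim Galore, Salmon and DESeq2 on mm10, and the versions and the annotation are not given in the sources used here. The authors deposited gene-level estimated counts, given as whole numbers and without scaling for library size. The table holds 16411 genes (smallest sum 5 counts), and 0 of its columns lacked a sample.

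Genes were filtered with filterByExpr of edgeR 4.0.16 in R 4.3.3 (minimum count 10, minimum total 15), scaled by TMM and compared by the two-sided quasi-likelihood test, adjusted by Benjamini-Hochberg over 13191 genes and read at an adjusted p of 0.1, the study's threshold. Every p was adjusted over all genes and none over a list. The standard error (SE) given with an edgeR log2 fold change was derived from the test. It is the absolute log2 fold change divided by the square root of the F statistic. CPM uses the scaled library sizes, and log2 CPM added 2 counts. Ratios of 2 factors were compared by exact permutation, read at 0.05. CPM per kb used GENCODE M21 exons (GRCm38). The scripts were tested on simulated data. The labels group the samples, and the methods say that the groups came from different mice. Same-numbered samples deviated from their group means with r between -0.12 and 0.10. This gave no sign that the numbers pair samples, but it cannot exclude pairing, since tissue make-up also varied between samples. No 2 libraries were alike within sampling noise (smallest chi-square per degree of freedom 12.5).

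The 10 factors, the lists and the ratios were chosen with earlier results of these data known. Named genes were the 10 factors, in each list the called gene that rose most and the 2 called genes that fell most, all related genes, called genes of the favoring and restraining lists that moved against their majority, and for Pparg, Cebpb and Ebf1 the 3 most correlated genes. The family shares were chosen after values were seen. Alternatives were DESeq2 1.42.0, other scalings, filters and thresholds, a replicate block, and leaving out libraries.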

Additional observations from a re-analysis of the deposited data

Results flagged for a closer look

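Cebpb in tumor 5 was at 251 CPM, and the nearest of the other tumors was at 321 CPM. On the log2 CPM scale this gap was 0.698 of the range of the 6 tumors, above Dixon's 95% limit for 6 samples. Chance alone marks about 1 in 20 groups, and 20 groups (10 factors in benign tissue and in tumors) were examined. Tumor 5 also had the highest Rxrg (13.2 CPM) and Klf15 (11.0 CPM), the lowest Zfp423 (7.67 CPM) and the highest skeletal muscle markers (153 CPM) of the tumors. Without tumor 5, the log2 fold change of Cebpb kept its direction and its call.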

How the results depend on the processing

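No direction reversed among the 10 factors, the 5 ratios and the counts. Of 118 genes of the lists tested both with and without benign 3, 4 and 6, 3 that passed no test turned sign: Ppara (-0.79 to 0.49), Ddit3 (-0.29 to 0.05) and Csf3r (0.08 to -0.16). DESeq2, upper-quartile scaling, an adjusted p of 0.05, the filter of at least 1 count and the replicate block each kept 8 factors called lower and 1 higher. With the replicate block, the log2 fold change was 1.43 for Cebpb and -4.78 for Rxrg. Total counts in place of TMM gave 2 factors called higher, with Cebpd added, and moved the median of all genes from -0.06 to 0.03. At least 10 counts in every sample left 4 factors called lower, 11 PPARG targets, 1 cofactor and 3 restraining factors, because genes near 0 in tumors were removed from the test. Over the 12 fits that left out 1 library, 8 factors were called lower each time and 1 to 2 higher, and the log2 ratio of Rxra to Rxrg differed by 2.68 to 3.89. Without benign 3, 4 and 6 that difference was 2.46, and Rxrg (-1.76) and Zfp423 (-0.58) lost their calls; over all genes 55.4% of 13604 were then called. The cause was not tested. Depth limits Pparg, with 1 to 19 counts per tumor, and Rxrg, with 0 in 3 tumors.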
